A study of Mus musculus with 4 samples.

Results

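Regional patterning transcription factors are the DNA-binding proteins that give each stretch of the embryonic neural tube its identity, and 35 of them were followed here in cultured mouse astrocytes. They were chosen by name, as factors known to mark the dorsal telencephalon, the ventral telencephalon, the anterior forebrain and midbrain, the midbrain and hindbrain or the dorsal neural tube together with the Iroquois and Zic families, and not by a threshold on measured values. Of the 35, 33 were among the 25393 genes of the deposited table, and Pax3 and Pax8 were not listed. 29 had a mean of at least 1 normalized count and were among the 22094 genes tested.

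RNA-seq was performed on 4 libraries of primary astrocytes, 2 labelled wild type (WT) and 2 labelled tet1-/- (KO). Tet1 encodes an enzyme that oxidises 5-methylcytosine to 5-hydroxymethylcytosine in DNA, and the study's KO mice were constitutive knockouts, in which the deletion is not restricted to astrocytes. Both groups were untreated cells of the C57BL/6 strain from cortex and hippocampus at postnatal day 1. Cells of 2 mice were pooled for a culture, grown for about 7 days, shaken at 260 rpm to remove loosely attached cells and kept for a further 24 h. The labels do not say whether libraries with the same label came from separate cultures, so every p-value measures the spread between these libraries, which for the WT pair may be technical.

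The values deposited by the authors, called normalized counts, are reads scaled by a size factor for each library. The libraries held between 18749610 and 22673555 reads on genes, and 3 reads, taken as the detection floor, equal 2.70 to 3.21 normalized counts, which covers counting error only. Tet1 (chromosome 10) had 266 and 121 normalized counts in WT against 173 and 463 in those labelled KO, and it was therefore not lower in the latter (log2 difference 0.66, standard error 0.65, adjusted p = 0.691, limma). The paper reports hardly any Tet1 mRNA in its KO astrocytes and a lower global level of hydroxymethylcytosine by dot blot. The counts here cover the whole gene, and single exons were not examined. The libraries labelled KO are called KO-labelled here, and a direction given for them is that of the label. The summed level of 10 astrocyte markers was 1901 and 1773 FPKM (reads scaled to gene length and library total, a level per length) in WT, and 3028 and 477 FPKM in KO-labelled replicates 1 and 2. Gfap carried much of these sums, with 1871 FPKM in KO-labelled replicate 1 and 117 in replicate 2. All 10 markers were above 3 reads in every library, 8 of them had lower log2 values in the KO-labelled libraries (median difference −0.73), and Slc1a3, Slc1a2, Aqp4, Aldh1l1 and Sox9 did so without overlap. Xist, which is transcribed from the inactive X chromosome of females, had 8.54 and 0.92 normalized counts in WT against 2896 and 13367 in the KO-labelled libraries. The summed level of 4 Y-linked genes was 3765 and 1909 normalized counts in WT against 0 and 830 in the KO-labelled libraries, so the genotype label and the sex of the pups cannot be told apart. The KO-labelled libraries also differed from each other in these genes and were thus not repeats of 1 culture.

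The vertebrate neural tube is divided by diffusible signals from its borders, and each territory switches on its own set of homeobox, paired-box or zinc-finger factors. In the telencephalon, Emx1, Emx2 and Pax6 mark the dorsal part that forms cortex and hippocampus, whereas Nkx2-1, Gsx1, Gsx2 and the Dlx genes mark the ventral part that forms the basal ganglia and most cortical interneurons. Six3 and Otx2 act at the anterior end of the tube, and the En, Pax2, Pax5 and Gbx2 genes act around the boundary between midbrain and hindbrain. Astrocytes descend from the progenitors of these territories and are known to keep part of their regional code.

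Emx2, Pax6 and Otx1 of the dorsal telencephalic code were at a high and even level in the cultures, and Emx1 was lower and uneven. Six3, Nkx2-1, Gsx2 and Otx2, which mark anterior and ventral forebrain, were lower in both KO-labelled libraries than in either WT library. In all, 7 members were lower without overlap, 24.1% of the 29 tested, against 25.4% of all genes. Six3 was lower by 1.72 on the log2 scale, and Nkx2-1 was at 4.99% of its WT mean. Members of the midbrain and hindbrain group lay mostly at or near the detection floor, with Pax2 an exception at a mean of 79.8 normalized counts. None of the 29 members had an adjusted p under 0.05 in limma, as was the case for 0% of all genes. Six3, Nkx2-1, Gsx2 and Otx2 were lower at an unadjusted p under 0.05 in limma, as were 9.18% of all genes. In DESeq2 Six3 and Nkx2-1 had an adjusted p under 0.05, as had 4.92% of all genes. Where a bulk level is lower, fewer cells of a type and less RNA per cell cannot be told apart.

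The promoters of the 3 lower factors whose RefSeq start gave 1 window, Six3, Nkx2-1 and Gsx2, are shown beside that of Emx2, a factor at an even level, since CpG dinucleotides are the substrate of the methylation that Tet1 acts on. Each line gives the 250 bases upstream of the transcription start from RefSeq on GRCm38.p6, 5′ to 3′ on the strand of the gene, with every CG in capitals.
Six3, chr17:85620584-85620833, plus strand: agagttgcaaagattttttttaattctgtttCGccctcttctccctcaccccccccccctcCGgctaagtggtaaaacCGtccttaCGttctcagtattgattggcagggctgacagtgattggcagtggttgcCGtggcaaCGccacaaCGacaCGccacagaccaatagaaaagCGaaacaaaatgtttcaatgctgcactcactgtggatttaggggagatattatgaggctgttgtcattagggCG
Nkx2-1, chr12:56536909-56537158, minus strand: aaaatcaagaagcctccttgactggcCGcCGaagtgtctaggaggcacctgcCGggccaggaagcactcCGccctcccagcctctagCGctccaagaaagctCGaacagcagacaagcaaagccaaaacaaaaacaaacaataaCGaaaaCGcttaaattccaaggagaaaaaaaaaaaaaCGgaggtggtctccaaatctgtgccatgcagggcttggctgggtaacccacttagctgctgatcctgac
Gsx2, chr5:75075351-75075600, plus strand: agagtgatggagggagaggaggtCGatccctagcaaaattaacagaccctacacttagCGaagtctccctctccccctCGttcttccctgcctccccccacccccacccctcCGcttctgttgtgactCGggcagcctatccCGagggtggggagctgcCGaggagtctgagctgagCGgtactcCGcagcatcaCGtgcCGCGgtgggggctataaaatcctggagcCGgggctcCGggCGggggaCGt
Emx2, chr19:59458440-59458689, plus strand: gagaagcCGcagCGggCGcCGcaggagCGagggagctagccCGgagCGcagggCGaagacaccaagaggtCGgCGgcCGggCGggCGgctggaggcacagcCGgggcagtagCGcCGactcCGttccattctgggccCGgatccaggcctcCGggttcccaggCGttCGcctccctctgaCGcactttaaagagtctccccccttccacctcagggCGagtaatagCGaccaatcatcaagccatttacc
The RefSeq start was the first base of the gene in the deposited table for Nkx2-1 and Gsx2, lay 318 bases inside the gene for Emx2 and 7226 bases inside it for Six3. These windows held 10 CG in Six3, 9 in Nkx2-1, 16 in Gsx2 and 24 in Emx2. Other factors at an even level held fewer than Gsx2, with 7 CG in Meis2 and 15 in each window of Pax6. Otx2, the remaining lower factor, held 6 to 14 CG in its 4 windows. A link between the CG count and the level was not tested. RefSeq promoters were matched for 27 members, in 36 windows, of which 69.4% held at least 10 CG, against 37.8% of all 32851 windows of the same length. The homeodomain core TAAT, searched on both strands as TAAT or ATTA, was found in 52.8% of the members' windows and in 54.9% of all windows. It occurred 3 times in the window of Six3, once in Gsx2 and Emx2 and not in Nkx2-1. A match describes these letters only, and methylation was not analysed here.

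Levels of different genes were compared per length. Zic2, a zinc-finger factor of the dorsal midline, was the highest member at a mean of 20.2 FPKM, with 23.6 and 18.4 FPKM in WT and 21.9 and 17.1 in the KO-labelled libraries. Meis2, a homeobox cofactor used in the lateral and ventral telencephalon and elsewhere, followed at 13.5 FPKM, and the libraries of both genes stayed apart from those of the next gene in order. Emx2 (9.28 FPKM), Pax6 (8.71 FPKM) and Otx1 (7.98 FPKM) came next, and their ranges over libraries overlapped. Below them stood Six3 at 4.78 FPKM, Zic5 at 4.35, Nkx6-2 at 3.64, Zic1 at 2.21, Dlx2 at 1.50 and Emx1 at 1.29 FPKM. The other 22 listed members had means under 1 FPKM. 18 members were above 3 reads in all 4 libraries, and 7 were above it in none.

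**Figure D1:**
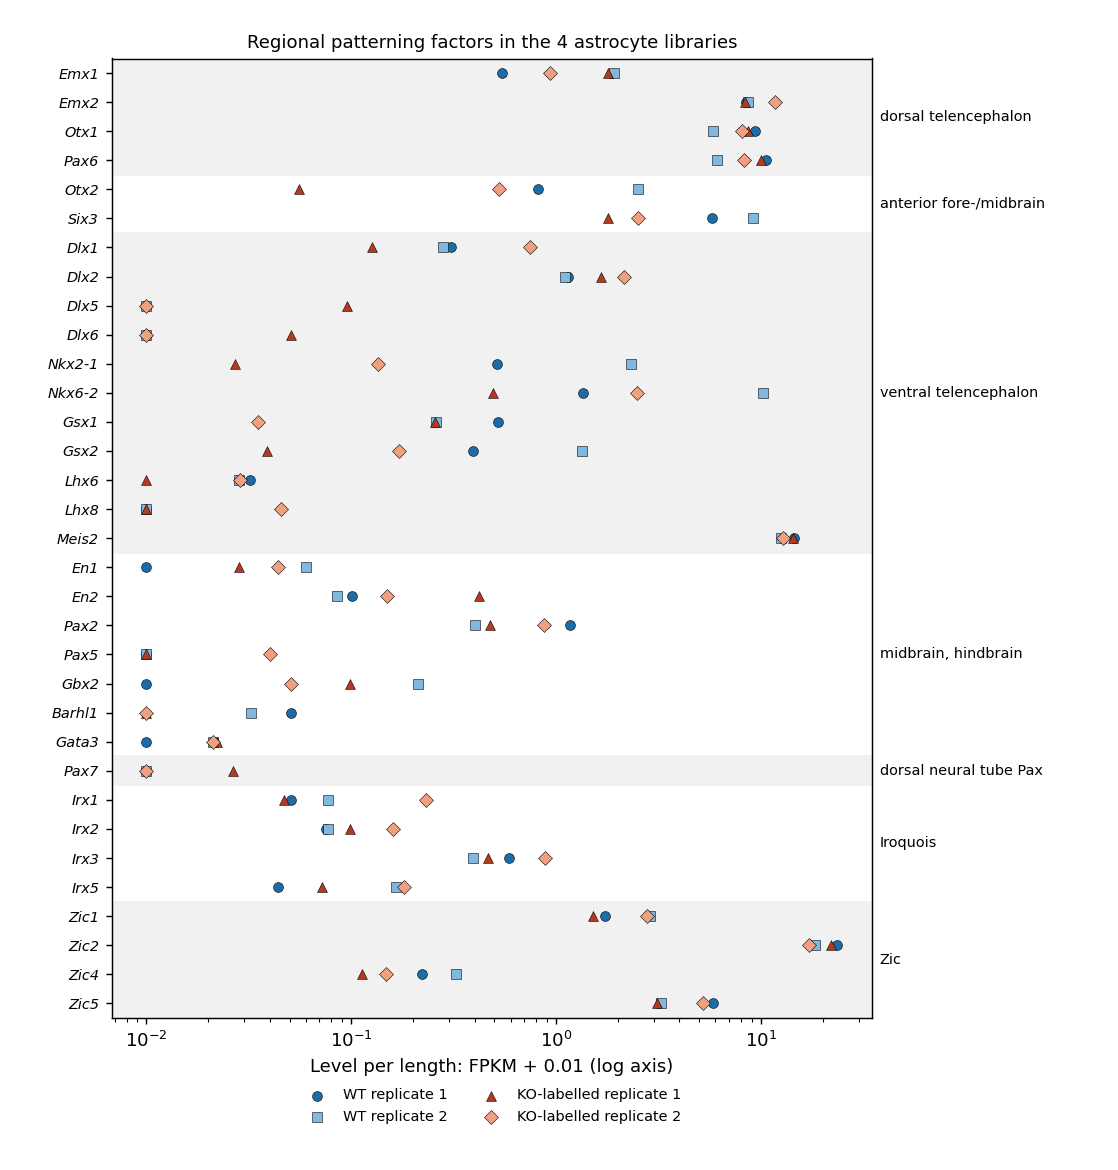
Level per length of the 33 listed members, as FPKM + 0.01 on a log axis, with 1 point per library and the members grouped by territory. The dorsal telencephalic factors Emx2, Otx1 and Pax6, together with Meis2 and Zic2, form tight clusters of points above 5 FPKM, whereas Nkx2-1, Gsx2 and Otx2 spread over more than 10-fold.

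Among the dorsal telencephalic factors, the libraries of both labels lay close together. Emx2, which sets the size and identity of the hippocampus and caudal cortex, had 507 and 539 normalized counts in WT against 557 and 709 in the KO-labelled libraries. Both KO-labelled values were above both WT values, and the log2 difference of 0.26 was smaller than its standard error of 0.31 (adjusted p = 0.741, limma). Pax6, which drives neurogenesis in cortical radial glia, had 2467 and 1488 normalized counts in WT against 2584 and 1941. The groups overlapped, with WT replicate 2 the lowest library. Otx1, a homeobox gene of cortical progenitors, had 1016 and 656 normalized counts in WT against 1037 and 889, again with WT replicate 2 the lowest. The log2 differences of Pax6 and Otx1 were 0.22 and 0.23, each with an adjusted p of 0.799 or more in limma. Emx1, the marker of cortical excitatory progenitors, was the exception in spread. It had 23.5 and 86.4 normalized counts in WT against 86.7 and 40.6 in the KO-labelled libraries, so that each label held 1 high and 1 low library. The summed level of the 4 factors was 28.9 and 22.4 FPKM in WT and 28.8 and 29.0 FPKM in the KO-labelled libraries.

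Six3 and Otx2 form the anterior group, and both were lower in the KO-labelled libraries without overlap. Six3 (ENSMUSG00000038805, chr17:85613608-85629302, plus strand) represses Wnt signals at the anterior end of the neural plate and is required for the forebrain. It had 624 and 1036 normalized counts in WT, against 214 and 276 in the KO-labelled libraries. Its WT mean of 830 ± 291 (SD, n = 2) was 3.39-fold that of the KO-labelled libraries, 245 ± 43.7 (SD, n = 2). The log2 difference was −1.72 with a standard error of 0.39, an unadjusted p of 0.00599 and an adjusted p of 0.208 in limma, and in DESeq2, run on whole reads, it was −1.76 with an adjusted p of 0.0134. Comparing each KO-labelled library with each WT library gave log2 differences from −2.27 to −1.18. Without WT replicate 2 the unadjusted p of Six3 was 0.0675 in limma.

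Reads on Six3 may be shared with neighbours on the opposite strand, since the strand setting of the counting is not given in the sources used here. Six3os1, a long non-coding gene that overlaps Six3 on the opposite strand, had 592 and 1239 normalized counts in WT against 176 and 302. Its log2 difference was −1.89 with a standard error of 0.50 and an unadjusted p of 0.0115 in limma. Gm28528, a second antisense gene over the start of Six3, had 11.7 and 18.4 normalized counts in WT against 2.14 and 3.61. All 3 genes measured at the locus thus had the same order of libraries, with WT replicate 2 highest and KO-labelled replicate 1 lowest.

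Otx2 (chr14:48657677-48673819, minus strand), a homeobox factor of forebrain and midbrain that later stays on in the choroid plexus, had 68.3 and 220 normalized counts in WT. In the KO-labelled libraries it had 4.28 and 44.2, both lower than in WT but 10.3-fold apart from each other. The log2 difference was −3.00 with a standard error of 1.19, an unadjusted p of 0.0499 and an adjusted p of 0.364 in limma, and leaving out any library other than KO-labelled replicate 2 took the unadjusted p to between 0.154 and 0.353. The 7 choroid plexus markers, of which 6 were listed, summed to 5.48 and 10.7 FPKM in WT and 9.72 and 22.0 FPKM in the KO-labelled libraries. Ttr alone gave 19.1 of the 22.0 FPKM, the labels overlapped for all 6, and 4 of them had lower and 2 higher log2 values in the KO-labelled libraries (median difference −0.61). The part of choroid plexus cells in the level of Otx2 was not tested.

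**Figure D2:**
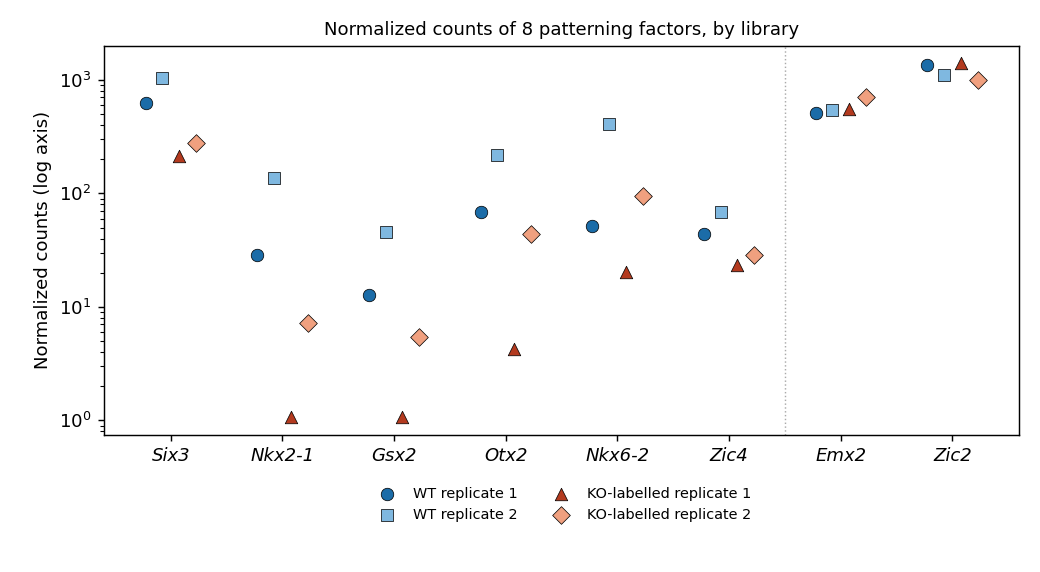
Normalized counts of 8 members on a log axis, with 1 point per library. Six3, Nkx2-1, Gsx2, Otx2 and Zic4 have both KO-labelled libraries below both WT libraries, Nkx6-2 has overlapping groups, and Emx2 and Zic2, right of the dotted line, stay within 1.40-fold and 1.41-fold over all libraries.

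The ventral telencephalic factors did not share a direction. Nkx2-1, Gsx2, Nkx6-2 and Gsx1 had lower means in the KO-labelled libraries, Dlx1 and Dlx2 did not, and Meis2 was level. Nkx2-1 (ENSMUSG00000001496, chr12:56531958-56536908, minus strand) specifies the medial ganglionic eminence and the interneurons born there. It had 28.8 and 137 normalized counts in WT against 1.07 and 7.21, where 1.07 stands for 1 read. Both KO-labelled libraries lay below both WT libraries, and the libraries within each label also differed, by 4.76-fold in WT and 6.74-fold in the KO-labelled pair. The WT mean was 82.9 ± 76.5 (SD, n = 2), and that of the KO-labelled libraries 4.14 ± 4.34 (SD, n = 2). The log2 difference was −3.96 with a standard error of 1.11, an unadjusted p of 0.0141 and an adjusted p of 0.261 in limma, and −4.30 with an adjusted p of 0.00708 in DESeq2. Its unadjusted p in limma was 0.140 without WT replicate 2 and 0.111 without KO-labelled replicate 1. The antisense gene Gm26973, which overlaps Nkx2-1, had 3.20 and 5.52 normalized counts in WT against 0 in both KO-labelled libraries.

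Gsx2 (ENSMUSG00000035946, chr5:75075601-75077893, plus strand) specifies the lateral ganglionic eminence, the source of striatal neurons and olfactory interneurons. It had 12.8 and 46.0 normalized counts in WT against 1.07 and 5.41, a 9.07-fold difference of means with no overlap. The log2 difference was −2.81 with a standard error of 1.00, an unadjusted p of 0.0349 and an adjusted p of 0.339 in limma, and the adjusted p in DESeq2 was 0.174. Leaving out any 1 library took the unadjusted p above 0.05, to between 0.0527 and 0.203 in limma. Its paralog Gsx1 had 18.1 and 9.20 normalized counts in WT against 9.63 and 0.90, with WT replicate 1 the highest, so the 2 Gsx genes did not share an order of libraries. Nkx6-2, a homeobox factor of ventral progenitors and of oligodendrocytes, had 51.2 and 408 normalized counts in WT against 20.3 and 95.5. The labels overlapped, because KO-labelled replicate 2 lay above WT replicate 1, and the log2 difference of −1.69 had an adjusted p of 0.582 in limma. The 9 oligodendrocyte lineage markers summed to 216 and 321 FPKM in WT and 430 and 243 FPKM in the KO-labelled libraries. Olig1 made up most of each sum, with 122 and 178 FPKM in WT against 320 and 162, while 6 of the 9 markers had lower log2 values in the KO-labelled libraries (median difference −0.72).

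The Dlx genes, which act downstream of Gsx2 in the ganglionic eminences and drive the GABAergic fate, did not have the order of Gsx2. Dlx2 had 65.1 and 65.3 normalized counts in WT against 104 and 123 in the KO-labelled libraries, both of them higher (log2 difference 0.79, standard error 0.45, adjusted p = 0.494, limma). Dlx1, 9.43 kb from Dlx2 on chromosome 2, had 32.0 and 30.3 normalized counts in WT against 13.9 and 80.2 in the KO-labelled libraries, which lay on either side of WT. Dlx5 and Dlx6 were at 0 in 3 libraries and at 4.28 and 2.14 normalized counts in KO-labelled replicate 1. Lhx6, which follows Nkx2-1 in migrating interneurons, and Lhx8, which follows it in cholinergic neurons, stayed at or under 2.13 normalized counts in every library, below 3 reads. Meis2 had 3479 and 3138 normalized counts in WT against 3841 and 3113 in the KO-labelled libraries, a log2 difference of 0.07 with a standard error of 0.29.

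GABAergic neurons are among the cells that ventral progenitors produce. Of 7 GABAergic neuron markers 5 were listed, of which 4 had lower and 1, Gad2, higher log2 values in the KO-labelled libraries. The 5 summed to 34.9 and 18.7 FPKM in WT and 4.58 and 2.30 FPKM in the KO-labelled libraries. Npy alone gave 31.6 and 13.1 FPKM of the WT sums, and 3.50 and 1.34 FPKM of the KO-labelled sums. Gad1, the enzyme that makes GABA, had 152 and 74.5 normalized counts in WT against 15.0 and 29.7, and Npy, a neuropeptide of interneurons, had 357 and 154 against 43.9 and 15.3. Slc32a1 and Sst were not listed, and Gad2 had 1.07 and 0 normalized counts in WT against 2.14 and 9.01. Calb2, a calcium-binding protein of interneurons, had 9.60 and 84.6 against 0 in both, and Pvalb 43.7 and 60.7 against 22.5 and 14.4. In WT, Calb2 and Pvalb were higher in replicate 2, as were Nkx2-1 and Gsx2, whereas Gad1 and Npy were higher in replicate 1. The 10 microglial markers summed to 61.9 and 94.2 FPKM in WT and 24.3 and 11.5 FPKM in the KO-labelled libraries. The 10 markers of dividing cells summed to 19.2 and 45.4 FPKM against 74.3 and 122 FPKM. Lower log2 values in the KO-labelled libraries were found for all 10 microglial markers (median difference −3.51), and higher ones for all 10 dividing-cell markers (median difference 3.16). All 6 ependymal markers had lower log2 values in the KO-labelled libraries (median difference −1.21), with sums of 152 and 215 FPKM in WT and 161 and 31.7 FPKM. Of 8 tested markers of neuroblasts and neurons in general, 7 had higher log2 values (median difference 1.37), with sums of 19.6 and 23.7 FPKM in WT and 29.3 and 30.4 FPKM. The part of these cell types in the lower levels of Six3, Nkx2-1, Gsx2 and Otx2 was not tested.

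The midbrain and hindbrain group was mostly low under both labels. Of its 7 listed members, 3 did not exceed 3 reads in any library, and 2, Pax2 and En2, exceeded it in all 4. Pax2, a paired-box factor of the boundary between midbrain and hindbrain, was the only member of the 7 listed with a mean above 20 normalized counts. It had 125 and 44.1 normalized counts in WT against 55.7 and 94.6 in the KO-labelled libraries, which lay inside the WT range. En2, a homeobox factor of midbrain and cerebellum, had 6.40 and 5.52 normalized counts in WT against 32.1 and 9.91 in the KO-labelled libraries, both higher than WT (log2 difference 1.45, standard error 0.83, adjusted p = 0.495, limma). En1, its paralog, stayed at or under 2.76 normalized counts. Gbx2, the hindbrain partner of Otx2 at that boundary, had 0 and 9.20 normalized counts in WT against 4.28 and 1.80. Pax5 was detected in KO-labelled replicate 2 alone, at 5.41 normalized counts. Barhl1 had 3.20 and 1.84 normalized counts in WT against 0 in both KO-labelled libraries, and neither Gata3 nor the dorsal factor Pax7 exceeded 2.14 in any library. The summed level of the midbrain and hindbrain group was between 0.753 and 1.29 FPKM per library, below the lowest sum of the dorsal telencephalic group, 22.4 FPKM. This comparison covers the chosen members only. A further list of 30 midbrain and hindbrain factors, taken up below, summed to 21.8 and 21.7 FPKM in WT. In the KO-labelled libraries that list summed to 24.3 and 34.6 FPKM.

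The Iroquois genes, homeobox factors that subdivide midbrain, hindbrain and spinal cord, were low. Irx3 had 32.0 and 22.1 normalized counts in WT against 27.8 and 48.7 in the KO-labelled libraries. Irx1, Irx2 and Irx5 stayed between 2.13 and 11.7 normalized counts. All 4 had their highest value in KO-labelled replicate 2, and their log2 differences lay between 0.42 and 0.73 with adjusted p of 0.691 or more in limma. Reads of overlapping antisense genes cannot be separated for 16 of the 33 listed members.

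The Zic genes, zinc-finger factors of the dorsal midline, forebrain and cerebellum, lie in pairs in the genome. Zic2 had 1361 and 1103 normalized counts in WT against 1397 and 993 in the KO-labelled libraries, and Zic5, 9.76 kb away on chromosome 14, had 571 and 330 against 337 and 515. The labels overlapped in both, and their log2 differences were −0.06, with standard errors of 0.32 and 0.43. Zic1 had 195 and 339 normalized counts in WT against 191 and 318, also a log2 difference of −0.06, and under quantile normalization the differences of Zic1 and Zic5 turned to 0.17 and 0.0374. Zic4, which overlaps Zic1 by 3398 bases on the opposite strand of chromosome 9, had 43.7 and 68.0 normalized counts in WT against 23.5 and 28.8 in the KO-labelled libraries. Both KO-labelled values of Zic4 lay below WT, a 2.13-fold difference of means (log2 difference −1.04, standard error 0.58, adjusted p = 0.484, limma).

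**Figure D3:**
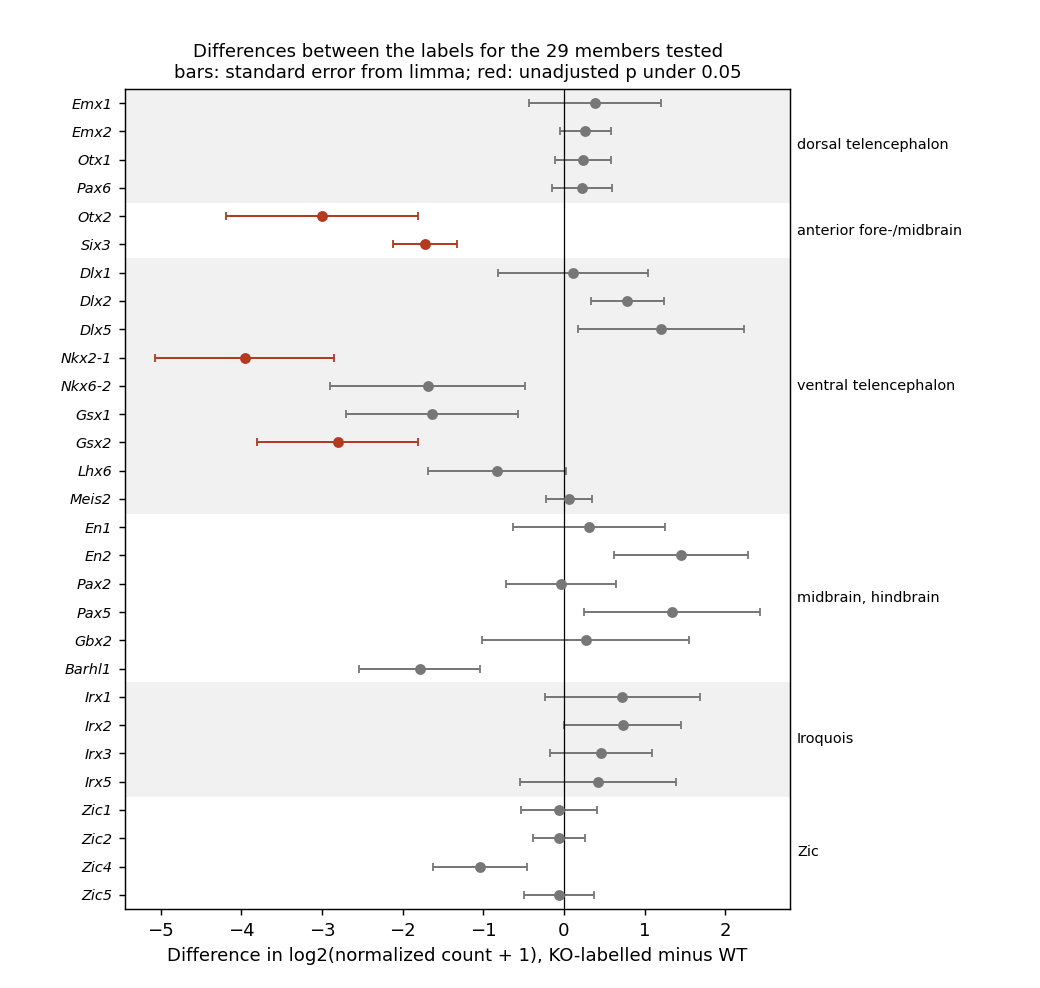
Log2 difference between KO-labelled and WT libraries for the 29 members tested, on log2(normalized count + 1), with the standard error from limma as bars. Red marks the 4 members with an unadjusted p under 0.05, Nkx2-1, Otx2, Gsx2 and Six3, all below 0, and the other 25 are grey.

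Over all members tested, 13 were lower and 16 higher in the KO-labelled libraries, with a median log2 difference of 0.11 against −0.07 over all 22094 genes. 4 members (13.8%), Six3, Nkx2-1, Gsx2 and Otx2, were lower at an unadjusted p under 0.05 in limma, where 9.18% of all genes were. None was higher at that p, where 4.54% of all genes were. The number with an adjusted p under 0.05 was 0 among the members and 0% among all genes, with the lowest adjusted p of a member at 0.208. In edgeR 3 members had an unadjusted p under 0.05 (12.4% of all genes) and 0 an adjusted one, and in DESeq2 2 members, Six3 and Nkx2-1, had an adjusted p under 0.05 (4.92% of all genes). Both KO-labelled libraries lay below both WT libraries for 7 members, 24.1% of those tested against 25.4% of all genes, and above them for 4 members, 13.8% against 22.5%. The 7 lower were Otx2, Six3, Nkx2-1, Gsx2, Lhx6, Barhl1 and Zic4, and the 4 higher were Emx2, Dlx2, En2 and Irx2. Lhx6 and Barhl1 did not exceed 3 reads in any library. Lhx6 had 2 reads in both WT replicate 2 and KO-labelled replicate 2, so the order of these libraries came from the scaling alone. Without KO-labelled replicate 2, the library with the lowest astrocyte markers, the log2 differences were −1.90 for Six3, −4.95 for Nkx2-1, −3.62 for Gsx2 and −4.55 for Otx2. With 2 libraries for each label, 0.333 is the smallest two-sided p that an exact permutation test of 1 gene allows.

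The libraries of 1 label differed from each other for many members. The 2 WT libraries were more than 2-fold apart for 9 of the 29 members (23.7% of all genes) and the KO-labelled pair for 13 (38.3% of all genes). Among the 19 members with a mean of at least 10, a minimum chosen after the values were seen, these counts were 6 (15.1% of all genes with that mean) and 7 (32.6%). 4 of the 19, Nkx2-1, Nkx6-2, Gsx2 and Otx2, were over 2-fold higher in replicate 2 than in replicate 1 under both labels. The share of all genes with that pattern was not counted, so these 4 are given as a description only. Emx1 was higher in replicate 2 in WT, by 3.68-fold, and higher in replicate 1 in the KO-labelled pair, by 2.14-fold. Emx2, Meis2, Zic2 and Dlx2 differed by at most 1.41-fold within either label. 5 members, Otx2, Six3, Nkx2-1, Gsx2 and Zic4, shared the order WT replicate 2, WT replicate 1, KO-labelled replicate 2 and KO-labelled replicate 1 from high to low, which 4.59% of all genes had. That order was picked out after the values were seen and is given as a description.

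**Figure D4:**
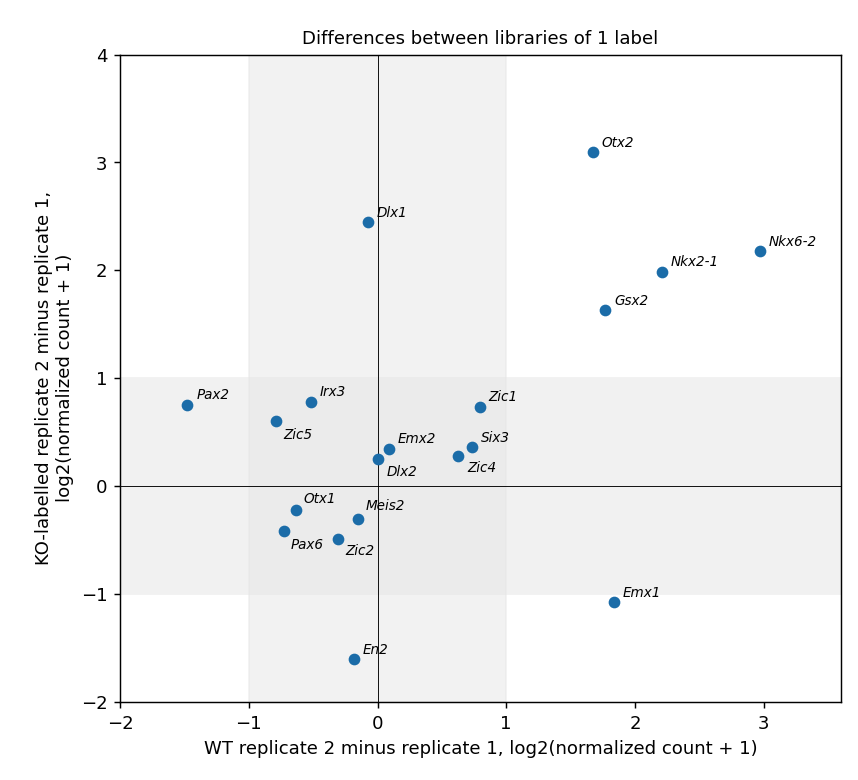
Difference between the 2 libraries of a label in log2(normalized count + 1), WT on the horizontal and KO-labelled on the vertical axis, for the 19 members with a mean of at least 10. Grey bands mark differences under 2-fold, and Otx2, Nkx2-1, Nkx6-2 and Gsx2 lie outside both bands at the upper right.

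Other patterning genes were read from lists written for the comparison. Of 30 further forebrain factors 21 were listed, and none had an unadjusted p under 0.05. Lhx2, which selects cortical identity, had 3111 and 2647 normalized counts in WT against 5219 and 3923 in the KO-labelled libraries, both higher than WT (log2 difference 0.66, adjusted p = 0.422, limma). Dmrta2, Nr2f1 and Gli3 were also among the 6 highest of the list, at means between 6.57 and 27.7 FPKM. Of those with larger differences, Vax1, a ventral anterior homeobox factor, had 38.4 and 104 normalized counts in WT against 0 and 34.3, with no overlap and the order of Six3 (log2 difference −3.44, adjusted p = 0.452, limma).

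Of 30 further midbrain and hindbrain factors 21 were listed and 14 tested, with none at an unadjusted p under 0.05. Sall3 was level, at 938 in both WT libraries and 913 and 1059 normalized counts in the KO-labelled libraries. Lmx1a, a factor of the roof plate, cortical hem and midbrain floor, had 70.4 and 68.0 normalized counts in WT against 511 and 35.2, a high value in KO-labelled replicate 1 alone. Gata2 was likewise highest there, at 166 normalized counts, against 23.5 to 37.9 in the other libraries. Dbx2 was highest in WT replicate 2, at 243, against 17.1 to 42.4 in the others. Of 29 Hox genes, which mark hindbrain and spinal cord, 9 were listed and 4 tested. The summed level of the Hox genes was at most 0.427 FPKM in any library.

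Of the 14 signals that set these territories 12 were listed and 10 tested, and 2 of them were lower and 1 higher at an unadjusted p under 0.05 in limma (9.18% and 4.54% of all genes). Wnt8b, a Wnt ligand of the cortical hem and hippocampal primordium, had 13.9 and 49.7 normalized counts in WT against 0 and 0.90 in the KO-labelled libraries (unadjusted p = 0.00469, adjusted p = 0.195 in limma, and adjusted p = 0.0254 in DESeq2). Bmp7 had 191 and 373 normalized counts in WT against 126 and 90.1, a 2.61-fold difference of means (adjusted p = 0.355, limma). Bmp4, a dorsal midline signal, went the other way, with 38.4 and 46.9 normalized counts in WT against 434 and 129 in the KO-labelled libraries (log2 difference 2.45, standard error 0.69, adjusted p = 0.260 in limma, and adjusted p = 0.0064 in DESeq2). Shh, the ventral signal that induces Nkx2-1, had 161 and 532 normalized counts in WT against 58.9 and 427, so its labels overlapped while replicate 2 was the higher under both. Wnt7b had 105 and 412 against 43.9 and 143, and Rspo1, which strengthens Wnt signals, had 6.40 and 68.0 against 1.07 and 6.31.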

How the data were processed

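RNA-seq of 2 WT and 2 KO-labelled astrocyte libraries was analysed, with each genotype and replicate number taken from the sample labels. The authors aligned the reads to mm10, and the aligner, the counting program and its strand setting are not given in the sources used here. The deposited file names FPKM, but the signal the authors deposited for each gene and library is a read count scaled by a size factor, with no correction for length. All values were within 0.02 reads of a whole multiple of 1 read, which is worth 0.901 to 1.07 normalized counts, so reads were recovered, and FPKM was computed from them, the gene lengths and the library totals. The authors also deposited log2 fold changes, p-values and means of each label, and these were not used. The deposited gene length and position served as such.

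Labels were compared with limma 3.58.1 in R 4.3.3 (lmFit, eBayes with a variance trend, two-sided) on log2(normalized count + 1) for the 22094 genes whose mean reached 1, adjusted over all of them by Benjamini-Hochberg. This scale understates differences of low genes. edgeR 4.0.16 (quasi-likelihood test, TMM) and DESeq2 1.42.0 on the recovered reads were alternatives, with the pseudocount, the filter, the scaling, the variance trend, a replicate block and each library left out in turn. The fits were tested on simulated data. Gene positions and overlaps came from GENCODE M21 on GRCm38 and promoters from RefSeq on GRCm38.p6. Other software was Python 3.11.15, numpy 2.4.6, pandas 2.3.3 and matplotlib 3.10.9.

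The members, the other lists and the marker lists were chosen with earlier results of these data known. Every member and Tet1 were named, and in each other patterning list the 6 genes highest in FPKM and the 6 with the largest difference among those whose mean reached 10 could be named, apart from items that are not reported here.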

Additional observations from a re-analysis of the deposited data

How the results depend on the processing

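The log2 differences of Six3, Nkx2-1, Gsx2 and Otx2 stayed below 0 under all 13 alternatives. They ran from −2.09 to −1.36 for Six3, −5.06 to −2.85 for Nkx2-1, −3.69 to −1.92 for Gsx2 and −4.55 to −1.45 for Otx2. The labels did not overlap for these genes, so leaving out 1 library could not turn their direction, and these fits show the range of sizes only. No adjusted p of a member was under 0.05 in limma or edgeR under any of them, whereas DESeq2 gave 2 members, Six3 and Nkx2-1, and 2 of the other patterning genes. The number of members lower at an unadjusted p under 0.05 was 4 in the main limma fit and 2 with quantile normalization. The number higher was 0 and 1. Leaving out 1 library changed these counts and also which members were counted. Without WT replicate 2, Six3, Nkx2-1, Gsx2 and Otx2 all lost that call, so the call of each depended on this library. The 3 other patterning genes at that p became 6 in DESeq2 and 2 to 9 with a library left out, 9 without KO-labelled replicate 1 and 6 without KO-labelled replicate 2. Over all 22094 genes, those at that p numbered 3032, and 2775 in DESeq2, 4846 without KO-labelled replicate 1, 2955 without KO-labelled replicate 2, 1135 without WT replicate 1 and 1380 without WT replicate 2. With a mean of at least 10, an alternative chosen after seeing the data, the 13 members over 2-fold apart in the KO-labelled pair became 7. Libraries with the same replicate number did not deviate together (correlation −0.08 over all genes tested, −0.11 where the mean reached 50), and the numbers were not taken as pairs. The fit with the replicate block gave 5 lower members at an unadjusted p under 0.05 and 5 other patterning genes in place of 3. All genes at that p numbered 2583 in this fit and 2907 with quantile normalization, against 3032 in the main limma fit.

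Quantile normalization moved the median log2 difference of all genes from −0.07 to 0.08 and turned the direction of Meis2 (−0.0685), Pax2 (0.45), Zic1 (0.17) and Zic5 (0.0374). Direction also turned for En1 in edgeR (−0.00776) and for Gbx2 in edgeR (−0.64) and DESeq2 (−0.61). With 1 library left out, the lone library being assumed to vary like the others, the log2 difference lay on both sides of 0 or reached it for Emx1 (−0.53 to 1.30), Otx1 (−0.0812 to 0.55), Pax6 (−0.14 to 0.59), Dlx1 (−1.11 to 1.34), Dlx5 (0.00 to 2.40), Meis2 (−0.0858 to 0.22), En1 (−0.64 to 1.27), Pax2 (−0.77 to 0.71) and Pax5 (0.00 to 2.68). The same held for Gbx2 (−1.41 to 1.94), Irx1 (−0.29 to 1.73), Irx5 (−0.49 to 1.33), Zic1 (−0.46 to 0.33), Zic2 (−0.30 to 0.19), Zic5 (−0.45 to 0.33) and Tet1 (−0.0508 to 1.36). The cause of these changes was not tested. Members under 3 reads in a library carry differences that depend on single reads.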

Other observations

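Among the other patterning genes not described above, Tfap2a had 4.27 and 11.0 normalized counts in WT against 22.5 and 18.9 in the KO-labelled libraries, both higher than in WT. Sp8, a zinc-finger factor of the dorsal lateral ganglionic eminence, had 18.1 and 30.3 normalized counts in WT against 15.0 and 85.6, and Etv1 had 203 and 109 against 102 and 489, so that KO-labelled replicate 2 held the highest value of both. Fgf18 had 36.3 and 40.5 normalized counts in WT against 72.8 and 40.6.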
